A study of Mus musculus with 3 samples.

Results

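The genes described here build the oxidative phosphorylation system, the chain of 5 protein complexes in the inner mitochondrial membrane. They were chosen by symbol from the deposited gene list. Symbols beginning with Nduf (without the Ndufaf assembly factors), Uqcr, Atp5, mt-, Cox4, Cox5, Cox6, Cox7 or Cox8, and the 4 Sdh genes, gave 99 of 32285 genes. Of these, 86 are encoded in the nucleus and 13 in mitochondrial DNA. The nuclear genes comprise 39 of complex I, 4 of complex II, 8 of complex III, 18 of complex IV and 17 of complex V. Among them 84 had at least 30 UMIs (unique molecular identifiers, the molecules counted) in all, and Cox7b2 and Cox8c had 0. Ndufb1-ps, counted with complex I by symbol and with 34253 UMIs, is annotated as a long non-coding RNA.

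Complexes I to IV pass electrons from NADH and succinate to oxygen, and complexes I, III and IV pump protons. Complex V, the ATP synthase, uses the proton gradient to make ATP. Mitochondrial DNA encodes core subunits of complexes I, III, IV and V but none of complex II, so both genomes must supply parts. Neutrophils are known for relying largely on glycolysis, while lymphocytes and macrophages change their use of the chain when they are activated.

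Immune cells enriched with CD45 and viability microbeads from the infrarenal aorta of wild-type mice were measured in 3 libraries with a droplet 3' kit. Treatment was saline (PBS) for Sham and elastase for AAA_14, the latter an enzyme that degrades elastic fibres and is used to model abdominal aortic aneurysm. For AAA_7 the title gives an aneurysm and the treatment label PBS. AAA_7 below means the library titled so, and its values are descriptive. The unit of 7 and 14 is not given, nor are age, sex and strain. All aortas of a group were mixed, 20 with aneurysm and 50 controls by the protocol. With 1 library per group there was no replicate and no test, and every difference is one between libraries whose handling cannot be told apart from the treatment. Intervals are 95% and cover counting error only.

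Barcodes with at least 200 genes were kept at every mitochondrial share, which left 3711 in Sham, 3473 in AAA_7 and 10025 in AAA_14. Median UMIs per barcode were 2683, 2425 and 4354 in that order. Pairs of libraries shared 5 to 12 barcodes. Clusters were made without the described genes and named from markers as neutrophil-like, phagocyte-like (macrophage or monocyte), dendritic-like, T-like, NK-like and B-like, shortened below to the cell name. Sham held 24 phagocytes, under the 50 needed, so that class was compared only between the other libraries. The NK cluster also held T cells, and 1492 of 1878 Sham B cells fell in a different cluster from 2631 of 3432 AAA_14 B cells. Free RNA was present: the neutrophil gene S100a9 had a UMI in 28.2% of Sham T cells at a median of 3818 UMIs, and in 68.0% of AAA_14 T cells at a median of 5777.

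Promoters of 4 nuclear genes are shown as examples of genes described below, not all of them extremes. Ndufa11 (complex I) followed the other members closely, Atp5g2 (complex V) had one of the widest ranges between classes, Cox6a1 is the common form of a subunit whose other form was nearly restricted to one cluster, and Sdha (complex II) followed the other members least. Each is the 250 bases before the RefSeq start (GRCm38.p6), 5′ to 3′ on the gene's strand. Capitals mark the longer NRF1 motif, which is its own reverse complement, and in Cox6a1 near the start the GABPA motif CCGGAAG, there as its reverse complement.
Ndufa11, plus strand, chr17:56717512-56717761: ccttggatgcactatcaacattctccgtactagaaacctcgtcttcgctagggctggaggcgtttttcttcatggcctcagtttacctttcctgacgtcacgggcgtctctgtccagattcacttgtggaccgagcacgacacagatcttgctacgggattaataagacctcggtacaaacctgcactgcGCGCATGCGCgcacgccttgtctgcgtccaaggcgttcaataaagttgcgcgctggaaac
Atp5g2, minus strand, chr15:102671048-102671297: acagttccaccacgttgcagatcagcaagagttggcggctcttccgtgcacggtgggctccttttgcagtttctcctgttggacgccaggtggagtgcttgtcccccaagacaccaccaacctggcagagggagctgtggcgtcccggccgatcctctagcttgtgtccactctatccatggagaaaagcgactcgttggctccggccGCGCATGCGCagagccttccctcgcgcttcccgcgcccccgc
Cox6a1, minus strand, chr5:115348959-115349208: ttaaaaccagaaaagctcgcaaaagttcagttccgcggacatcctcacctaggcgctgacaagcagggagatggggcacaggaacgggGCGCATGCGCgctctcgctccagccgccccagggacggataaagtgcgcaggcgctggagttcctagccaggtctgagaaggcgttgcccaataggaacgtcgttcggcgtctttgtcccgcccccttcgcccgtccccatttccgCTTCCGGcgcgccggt
Sdha, minus strand, chr13:74350241-74350490: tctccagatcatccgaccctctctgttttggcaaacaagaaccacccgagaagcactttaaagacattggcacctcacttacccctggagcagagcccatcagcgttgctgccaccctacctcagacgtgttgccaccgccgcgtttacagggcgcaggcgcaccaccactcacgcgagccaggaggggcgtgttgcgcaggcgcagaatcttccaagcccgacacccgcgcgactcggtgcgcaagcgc

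NRF1 and GABPA are transcription factors known to act on nuclear genes of the respiratory chain. In windows of 300 bases (250 before and 50 after the start, both strands), 68 of the 86 nuclear members matched a RefSeq promoter. The NRF1 letters stood in 5 of the 68 (7.35%), in 1.07% of all 27025 genes with a promoter and in 2.43% of other genes with at least 1000 UMIs. The GABPA letters stood in 17 of the 68 (25%), in 9.93% of all genes and in 23.1% of the other genes with at least 1000 UMIs. The GABPA share of the members was thus close to that of other well-detected genes. The members with NRF1 letters were Ndufa11, Uqcrc1, Cox6a1, Atp5g2 and Atp5k, and a match is a description of letters, not a binding site. Ndufa11, Cox6a1 and Atp5g2 are among the promoters shown above, so those shown hold these letters more often than the members as a whole.

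The summed nuclear genes were lowest in neutrophils in all 3 libraries and highest in dendritic cells. Levels are CPM, the UMIs of the genes scaled to the non-mitochondrial UMIs of the class. Neutrophils had 9713 CPM in Sham, with 9862 in AAA_7 and 10052 in AAA_14. B cells had 15118, 15150 and 13167 CPM in the same order. The neutrophil sum thus lay below the B cell sum in each library, by 0.64, 0.62 and 0.39 on the log2 scale. CPM are shares, and S100a9 alone took 162442 CPM of neutrophils in Sham, 46952 in AAA_7 and 108068 in AAA_14. The part of such genes in the neutrophil level was not tested. T cells had 18303 CPM in Sham, with 20212 in AAA_7 and 18003 in AAA_14. NK cells had 20616, 20141 and 17875 CPM. Dendritic cells had 22502 CPM in Sham on 58 barcodes, 25101 in AAA_7 and 21189 in AAA_14. Phagocytes, with 21565 CPM in AAA_7 and 17840 in AAA_14, lay between neutrophils and dendritic cells, and in AAA_14 they were close to T and NK cells.

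**Figure D1:**
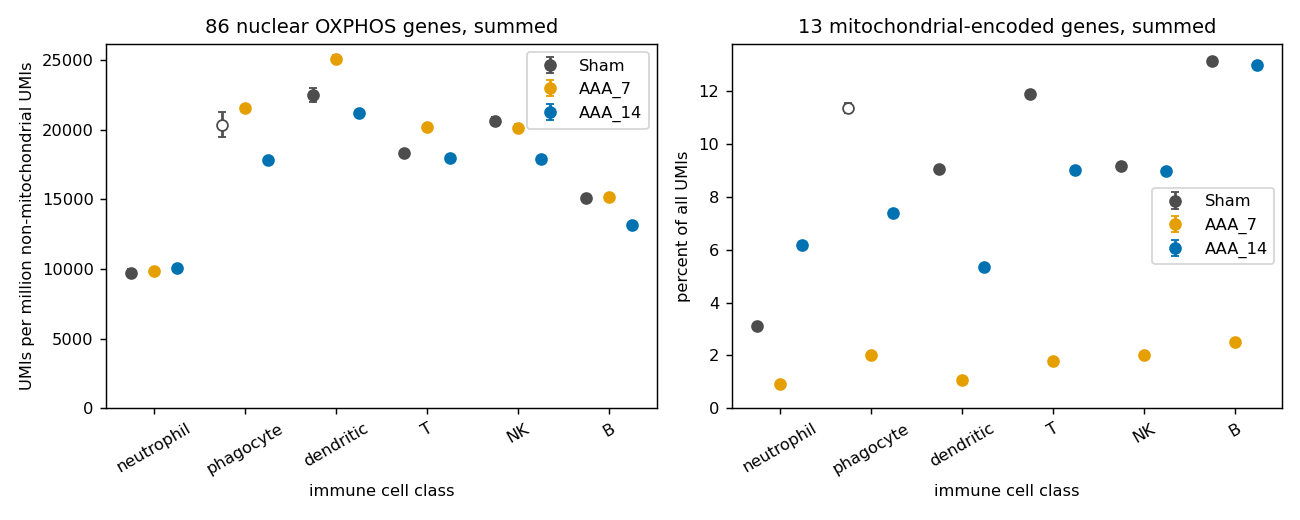
Left, summed nuclear genes in CPM. Right, summed mitochondrial-encoded genes as percent of all UMIs, both by immune cell class with 1 point per library and bars for the 95% counting interval. The open point is the class of 24 Sham barcodes. Neutrophils are lowest on the left in each library, and AAA_7 is lowest on the right in each class.

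The mitochondrial-encoded genes differed far more between libraries than the nuclear genes did. Their share of all UMIs was 11.6% for Sham, 1.75% for AAA_7 and 8.29% for AAA_14. B cells had 13.2% in Sham, 2.49% in AAA_7 and 13.01% in AAA_14. T cells had 11.9%, 1.78% and 9.01%, and dendritic cells 9.08%, 1.08% and 5.35%. NK cells had 9.19%, 2.03% and 8.98%. Neutrophils were the exception in direction: they had 3.10% in Sham, 0.928% in AAA_7 and 6.16% in AAA_14. In AAA_14 over Sham the log2 ratio was 0.99 in neutrophils (0.97 to 1.01), -0.76 in dendritic cells (-0.78 to -0.75) and -0.40 in T cells (-0.41 to -0.40). The ratios in NK cells (-0.03) and B cells (-0.02) were near 0, and both turned above 0 under other settings. Depth and free RNA also differed between libraries, as given above, and their part in these values was not tested. The mix of clusters differed too: the dendritic cluster led by Siglech held 58.6% of Sham and 18% of AAA_14 dendritic barcodes. Its mitochondrial share was 10.3% in Sham and 8.15% in AAA_14, while the dendritic cluster led by Cd209a had 4.70% in AAA_14. Sham neutrophils lay mostly in 2 clusters (55 and 53 of 122), which held 647 and 223 of 1200 in AAA_14, where another cluster held 330. The cluster of 55, led by Retnlg, had a mitochondrial share of 3.40% in Sham and 7.94% in AAA_14. The cluster of 53, led by Camp, differed little, with 2.88% and 3.33%. The other cluster, led by Acod1, had 9.03% in AAA_14. The part of the cluster mix in these ratios was not tested.

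For every nuclear UMI of the system, B cells held 10.0 mitochondrial-encoded UMIs in Sham, with 1.68 in AAA_7 and 11.4 in AAA_14. Neutrophils held 3.30, 0.95 and 6.53. T cells held 7.38, 0.898 and 5.50. The balance of the 2 genomes therefore differed between libraries mostly through the mitochondrial side.

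Barcodes with the largest mitochondrial shares had fewer nuclear transcripts of the system than other barcodes of their class. In Sham T cells the nuclear sum was 19930 CPM where 5 to 10% of UMIs were mitochondrial and 5048 CPM where 40% or more were. Malat1, a long RNA retained in the nucleus, went the other way in those barcodes, from 25550 to 137328 CPM. Median UMIs per barcode were 4673 and 960 in these 2 bins. In AAA_14 T cells the nuclear sum was 17538 CPM at 5 to 10% and 7201 CPM at 40% or more, with Malat1 at 15355 and 65736 CPM. B cells of Sham had 15182 CPM at 5 to 10%, a slightly higher 15662 CPM at 10 to 20% (the largest range, 1152 barcodes), then 9313 CPM at 20 to 40% and 4772 CPM at 40% or more. Cytosolic ribosomal protein genes were also lower there: 389541 CPM against 44627 CPM in the Sham T cells. The lower nuclear sum was therefore shared with ribosomal protein genes, and the bins differ in depth.

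**Figure D2:**
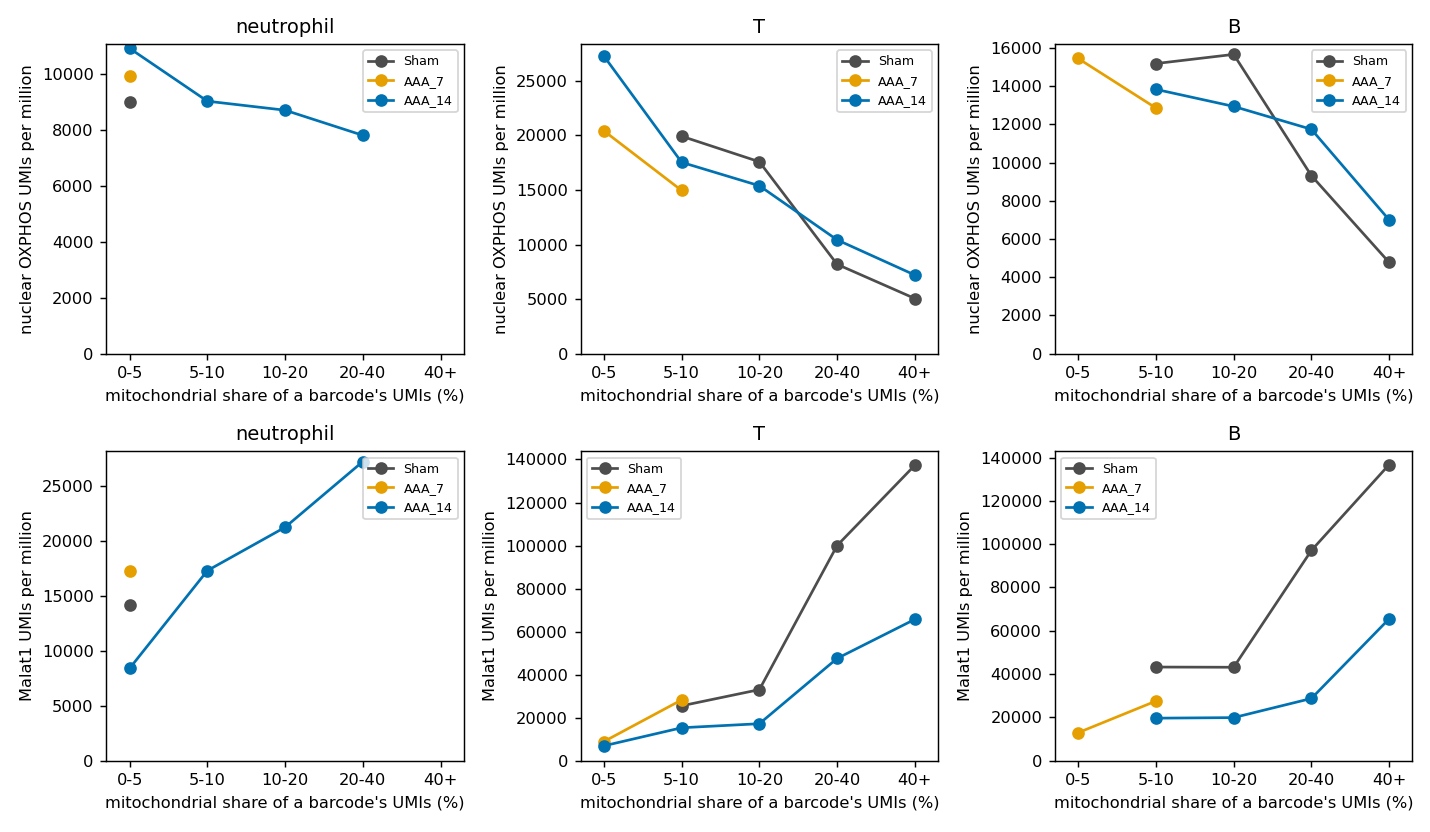
Nuclear genes of the system (top) and Malat1 (bottom), in CPM, against the mitochondrial share of a barcode's UMIs in 5 ranges, for neutrophils, T cells and B cells. Each point sums the barcodes of 1 library in 1 range with at least 20 barcodes; in T cells of Sham the nuclear sum goes from 19930 at 5-10% to 5048 at 40% or more.

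The makeup of the mitochondrial-encoded UMIs differed between libraries for some genes and between classes for others. Ranges here are over the classes with at least 50 barcodes, which are 5 in Sham and 6 in each other library. The kit tags transcripts near their 3' end, so UMIs of different genes were not divided by length. The core complex IV genes mt-Co1 and mt-Co3 gave the most UMIs over all libraries, followed by mt-Atp6 and mt-Co2, while in Sham mt-Atp6 stood above mt-Co1. mt-Co1 made 14.8% to 19.5% of mitochondrial UMIs in Sham, 22.8% to 28.6% in AAA_7 and 16.3% to 19.1% in AAA_14. mt-Co3 made 22.1% to 23.4%, 16.5% to 17.1% and 18.7% to 19.8% in the same order. Those ranges do not overlap between libraries for mt-Co3. mt-Co2 made 12.2% to 13.7%, 14.6% to 16.9% and 14.04% to 15.4%.

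Of the complex I genes, mt-Nd3 stood highest in Sham, at 2.91% to 3.45%, against 0.874% to 1.26% in AAA_7 and 1.48% to 1.63% in AAA_14. mt-Nd2 stood lowest in AAA_7, at 2.34% to 3.05%, against 3.88% to 5.75% in Sham and 4.61% to 5.90% in AAA_14. mt-Nd4 made 5.41% to 6.22%, 5.35% to 6.03% and 6.31% to 7.59%. mt-Nd1 ranged from 4.54% to 6.05% over all libraries, so it varied little. mt-Nd5 lay between 0.795% and 1.18% and mt-Nd4l between 0.266% and 0.493%. mt-Nd6, the protein gene on the other strand of mitochondrial DNA, made 0.0613% to 0.128% in Sham and at most 0.0417% elsewhere, on as few as 1 UMI in AAA_7. mt-Cytb of complex III varied by class: in AAA_7 it made 7.97% in phagocytes and 13.4% in B cells. Its ranges in Sham (8.54% to 10.9%) and AAA_14 (8.61% to 10.5%) lay within that of AAA_7. The ATP synthase genes mt-Atp6 and mt-Atp8 made 14.05% to 18.7% and 0.116% to 0.239%. mt-Atp8 and mt-Nd4l lie on shared transcripts with mt-Atp6 and mt-Nd4, so their UMIs may be divided between neighbours.

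**Figure D3:**
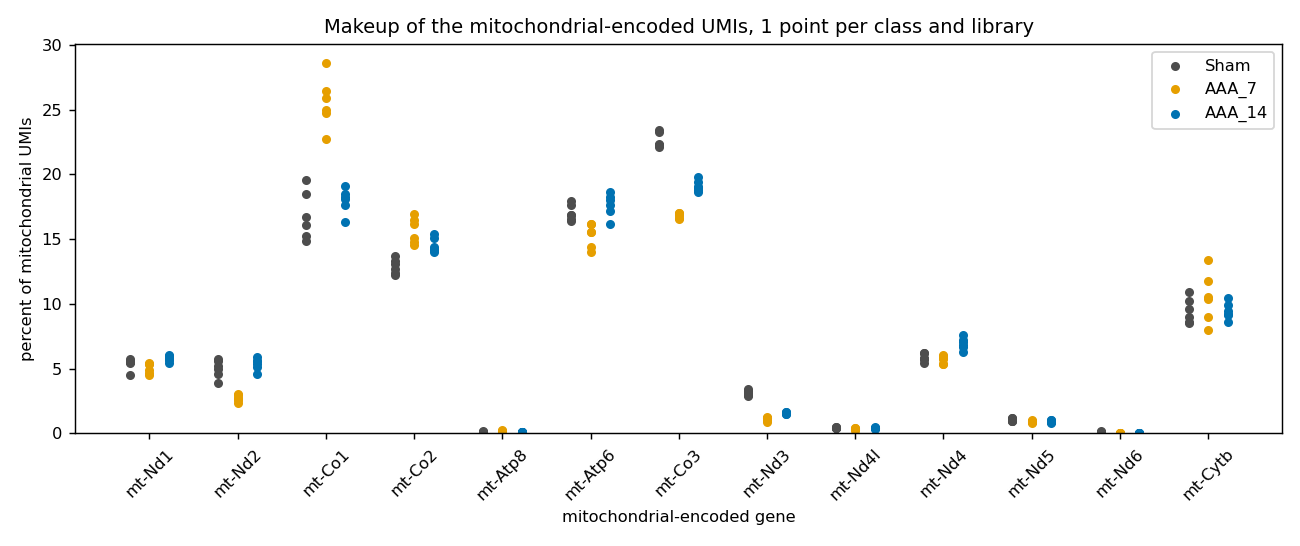
Percent of mitochondrial-encoded UMIs that came from each of the 13 genes, with 1 point per class and library (Sham phagocytes, 24 barcodes, included). mt-Co1 lies above the other libraries in AAA_7, and mt-Co3 and mt-Nd3 lie above them in Sham, while the points of mt-Cytb overlap between libraries and spread widest in AAA_7, from 7.97% to 13.4%.

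For AAA_14 against Sham, the question was which nuclear genes of the system differ between elastase-treated and control aortas within a class. The summed log2 ratio was small in every class: 0.05 in neutrophils (0.01 to 0.09), -0.09 in dendritic cells (-0.12 to -0.05), -0.02 in T cells (-0.04 to -0.01), -0.21 in NK cells (-0.23 to -0.18) and -0.20 in B cells (-0.21 to -0.19). No direction is read for neutrophils, T cells or B cells, because it turned under other settings. In B cells it became 0.09 when an unnamed cluster led by Ighg3, Pclaf and Mki67, with 21 Sham and 311 AAA_14 barcodes and tied B and plasma cell scores, was counted as B cells. That cluster had 30640 CPM in Sham and 24971 in AAA_14. Each T cluster with values in both libraries was lower in AAA_14 than in Sham. The values were 13810 against 15119 CPM (led by Lef1), 15068 against 17235 (Cd8b1), 18385 against 21245 (Ctla4) and 27704 against 30352 (histone genes). The Ctla4 cluster held 12.3% of Sham T barcodes and 37.1% of those of AAA_14. The part of this mix in the T cell sum was not tested.

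Of the nuclear members with at least 30 UMIs, those at least 1.5-fold different numbered 13 of 78 in neutrophils (9 higher, 4 lower), against 41.5% of all genes measured (31.9% higher, 9.59% lower). They numbered 19 of 80 in dendritic cells (13 higher, 6 lower), against 49.4% of all genes (31.4% higher, 18% lower). In T cells they were 7 of 78, all higher, against 43.7% (36.5% higher, 7.28% lower). NK cells had 16 of 78 (6 higher, 10 lower), against 43.3% (37.9% higher, 5.38% lower). B cells had 11 of 78 (3 higher, 8 lower), against 38.5% (29.2% higher, 9.25% lower). With both directions summed, each count was a smaller share than that of all genes. Members and all genes were not matched for depth: 76 to 79 members per class had at least 100 UMIs, while all genes needed only 30. Counting error passes the fold more easily at low counts, so no stability of the members is read from the smaller share. Lower calls alone were a larger share in NK cells (10 of 78 against 5.38%). In B cells they were close to the share of all genes (8 of 78 against 9.25%). These differences were not tested. The counting interval left out 0 for 9 of the 13 members in neutrophils, 18 of 19 in dendritic cells, and all 7, 16 and 11 in T, NK and B cells. The median gene of a class lay above 0, by 0.16 to 0.38 on the log2 scale, while the members' medians were 0.09, 0.00, 0.04, -0.11 and -0.12 in the order above. Centred on the median gene, the sum over classes became 17 higher and 95 lower of 392 instead of 38 and 28, so the split between higher and lower depends on the scaling.

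**Figure D4:**
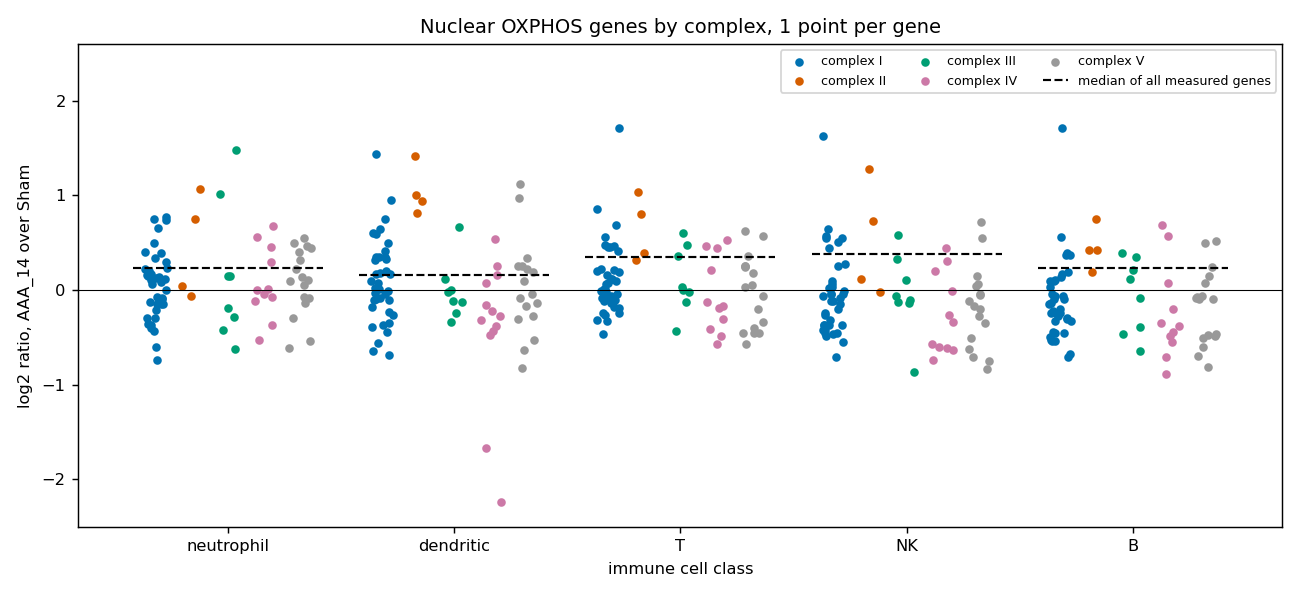
Log2 ratio of AAA_14 over Sham for each nuclear gene with at least 30 UMIs, by class and complex, with 1 point per gene and the median of all measured genes as a dashed line. Complex II points lie mostly above 0, and the lowest point in dendritic cells is Cox6a2 at -2.24.

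Complex II, succinate dehydrogenase, also works in the citric acid cycle and is wholly nuclear. Its summed level was higher in AAA_14 than in Sham in every class compared: 174 against 120 CPM in neutrophils, 359 against 175 in dendritic cells, 328 against 207 in T cells, 309 against 227 in NK cells and 256 against 178 in B cells. The log2 ratios were 0.53, 1.02, 0.66, 0.45 and 0.52. Sdha, the flavoprotein that oxidises succinate, had 61.7 CPM in Sham T cells, 118 in AAA_7 and 127 in AAA_14. In B cells Sdha had 70.7, 123 and 119 CPM, and in neutrophils 24.7 (13 UMIs), 35.1 and 53.7 CPM. Sham was lowest for Sdha in each class. The iron-sulfur subunit Sdhb differed by 0.04 to 1.01 on the log2 scale, with the largest value in dendritic cells on 16 Sham UMIs. The membrane anchor Sdhc had 33.0, 56.7 and 57.6 CPM in T cells of Sham, AAA_7 and AAA_14, but 20.9, 18.2 and 20.8 CPM in neutrophils. The other anchor, Sdhd, had 55.4, 50.3 and 68.9 CPM in T cells.

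The classes share the same libraries, so agreement between them is no replication. With that limit, 17 of 78 members measured in all 5 classes were higher in AAA_14 in each, 22 were lower in each and 39 were mixed. Of all 6500 genes measured in the 5 classes, 33.2% were higher in each and 7.63% lower in each, against 21.8% and 28.2% of the members. The difference was not tested, and the median of all genes lay above 0 in each class.

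Transcript length went with these directions. A gene's length here is the median over all its annotated coding transcripts, so it may differ from that of the form expressed. For example, Uqcrc1 counts with 533 bases and Atp5g1 with 2675.5. By this measure the members higher in each class had a median length of 931 bases, and 8 of 17 exceeded 1000 bases. Those lower in each had a median of 547 bases, and 2 of 22 exceeded 1000. Over all measured members with a length, the median log2 ratio in T cells was 0.38 for the 18 over 1000 bases and -0.02 for the 59 others. In B cells the same medians were 0.16 and -0.24. Other genes differed less by length in these classes, with medians of 0.41 and 0.27 in T cells and 0.29 and 0.15 in B cells. In NK cells members and other genes were more alike in this, with medians of 0.18 and -0.15 for members and 0.45 and 0.19 for other genes. Spearman rho of the members' length with log2 ratio was 0.33 in T cells and 0.41 in B cells for AAA_14 over Sham. For AAA_7 over Sham it was -0.28 and -0.18, so its sign turned. The part that length has in the members' directions was not tested.

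High members named by the rule were Uqcrc1 in neutrophils at 1.48 (0.56 to 2.79, 8 Sham UMIs), Uqcrfs1 there at 1.01, Sdhc at 1.41 in dendritic cells and 1.28 in NK cells, Atp5a1 at 1.13 in dendritic cells, Ndufb7 at 0.85 in T cells, and Cox7a2l at 0.69 in B cells. Cox7a2l, a factor in the joining of complexes into supercomplexes, had 257 CPM in Sham B cells, 357 in AAA_7 and 414 in AAA_14. The Rieske iron-sulfur protein Uqcrfs1 rested on 11 Sham UMIs in neutrophils.

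At the low end Cox7c, a small complex IV subunit, had 704 CPM in Sham B cells, 598 in AAA_7 and 380 in AAA_14, a log2 ratio of -0.89 (-0.96 to -0.82). In T cells Cox7c had 830, 853 and 558 CPM, so AAA_14 was the low library there and AAA_7 was not. Atp5mpl, a small ATP synthase subunit, had 466, 588 and 313 CPM in T cells. Its log2 ratio of AAA_14 over Sham was -0.57 in T cells, -0.83 in NK cells and -0.82 in dendritic cells. Uqcrb of complex III was at -0.86 in NK cells and -0.63 in neutrophils. Other low values were Atp5md (-0.81) and Cox8a (-0.71) in B cells, Atp5g1 (-0.75) in NK cells, Ndufb4 (-0.68) in dendritic cells, Cox7b (-0.48) in T cells, and Ndufa5 (-0.74) and Atp5c1 (-0.61) in neutrophils. The interval of Ndufa5, on 21 Sham UMIs, reached 0.02. Several of these genes have near-identical processed pseudogenes, so their counts may depend on how shared reads were assigned, which was not tested.

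Cox6a2 is the form of a complex IV subunit best known from heart and skeletal muscle, and Cox6a1 is the form found in most other tissues. Of 1660 Cox6a2 UMIs, 81.0% came from 1 dendritic cluster led by Siglech, a marker of plasmacytoid dendritic cells. In that cluster Cox6a2 had 1257 CPM in Sham, with 1663 in AAA_7 and 1084 in AAA_14, with a UMI in 82.4%, 75% and 78.4% of barcodes. The dendritic cluster led by Cd209a had 1.95 CPM in AAA_7 and 1.46 in AAA_14, and the one led by Fscn1 had 2.85 in AAA_14. The lowest ratio of any member, -2.24 for Cox6a2 in dendritic cells, moved with the cluster's share, which was 58.6% of Sham dendritic barcodes and 18% of those of AAA_14.

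**Figure D5:**
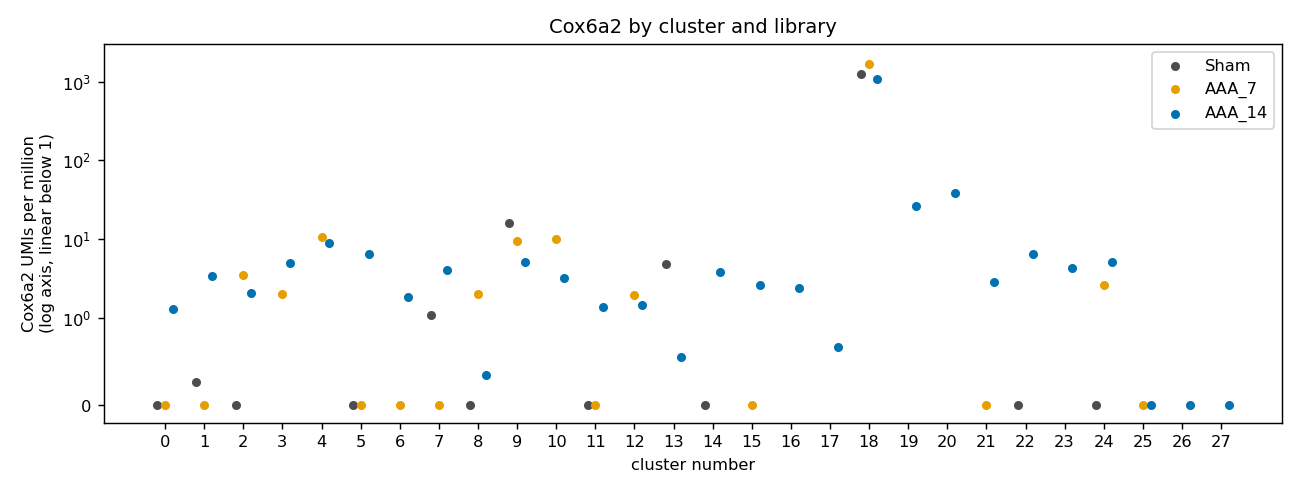
Cox6a2 in CPM by cluster number, on a log axis that is linear below 1, with 1 point per library with at least 20 barcodes. Cluster 18, the Siglech cluster, lies between 1084 and 1663, far above the others.

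Other alternative forms were rare. Ndufa4l2 is a relative of Ndufa4. Both were counted with complex I by symbol, although Ndufa4 is now regarded as a complex IV subunit. Ndufa4l2 had 226 UMIs, of which 85.4% came from a fibroblast cluster led by Col3a1, against 25903 UMIs for Ndufa4. Cox4i2 had 187 UMIs against 64364 for the common form Cox4i1, with 33.7% of them in a phagocyte cluster led by Il22ra2 and Marco and 26.7% in the fibroblast cluster. Cox7a1 had 225 UMIs against 26636 for Cox7a2. Cox6b2 had 336 against 33390 for Cox6b1, and Cox8b had 33 against 52347 for Cox8a. The 3 genes for the ATP synthase c subunit, which differ in their import sequence, were all well detected, with 15185 UMIs for Atp5g1, 39745 for Atp5g2 and 18620 for Atp5g3.

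Neutrophils had the lowest level in AAA_14 of each gene named for its wide range between classes. Atp5g1 had 41.1 CPM in neutrophils and 241 in dendritic cells, a 5.87-fold range. Ndufc2 of complex I ranged 5.41-fold, from 47.1 CPM in neutrophils to 255 in phagocytes. Atp5g2 ranged 4.27-fold, Cox7b 4.14-fold, Ndufa5 4.01-fold and Sdhc 3.84-fold. Uqcrfs1, Uqcrc2, Cox7a2l and Sdha ranged 3.13, 3.02, 2.72 and 2.37-fold. Choosing the widest ranges favours the class that is lowest in sum. Over all 76 members with enough UMIs in AAA_14, neutrophils were lowest for 51, B cells for 24 and NK cells for 1.

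Across 17 sums of class and library, 72 nuclear members had at least 10 UMIs in each, and their levels went largely together. The median Spearman rho of a member with the sum of the others was 0.757, and 66 were above 0.5. The sums share libraries and classes, and rho is a description. The share of other genes above 0.5 was not counted, so the number is not read as particular to the members. Cox6c (0.95), Ndufb2 (0.94) and Ndufa11 (0.92) followed the others most, and Sdha (0.18) least, while Atp5a1 (0.35) and Cox7a2l (0.39) were also low. Of 2748 other genes, the 10 most like the nuclear sum were Anapc11 (0.94), Naa38 (0.93), Micos10 and Dek (both 0.92), Tomm7 (0.91), Sec61b and Cycs (both 0.90), and Oaz1, Cox14 and Sod1 (all 0.89). Cycs encodes cytochrome c, the carrier between complexes III and IV.

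The level also differed between clusters of a class. A T cell cluster led by histone and cell division genes had 30352 CPM in Sham, with 25473 in AAA_7 and 27704 in AAA_14, above the T class as a whole in each library. A phagocyte cluster led by Ccl8, Pf4, Folr2 and Mrc1 had 21289 CPM in AAA_7 and 14891 in AAA_14. Erythroid cells of AAA_14 had 4552 CPM, which is below neutrophils.

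Lists of related genes were set beside the members for AAA_14 over Sham. Glycolysis genes, which make ATP without oxygen, were at least 1.5-fold higher in 10 of 15 in neutrophils, 13 of 15 in dendritic cells, 12 of 15 in T cells, 9 of 14 in NK cells and 11 of 15 in B cells, and 0 were lower by that fold. The background higher by that fold was 31.9%, 31.4%, 36.5%, 37.9% and 29.2% of all genes. Their summed level in T cells was 1554 CPM in Sham, with 2884 in AAA_7 and 2747 in AAA_14. Pkm, the pyruvate kinase that makes the last ATP of glycolysis, had a log2 ratio of 1.63 in T cells, with 1.62 in B cells and 1.32 in neutrophils, while Gapdh had 0.44, 0.12 and 0.02. Of the assembly factors of the complexes, 10 were higher and 2 lower of 46 in T cells, against 36.5% and 7.28% of all genes. In B cells 5 were higher and 7 lower of 45, against 29.2% and 9.25% of all genes. Citric acid cycle genes were 2 higher of 13 in T cells and 2 higher of 13 in B cells, with 0 lower. The higher shares of both lists lay below those of all genes in these classes. Cytosolic ribosomal protein genes were 7 higher and 19 lower of 80 in T cells, against the same 36.5% and 7.28% of all genes. Malat1, set beside them as an RNA retained in the nucleus, had 32764 CPM in Sham T cells, 9664 in AAA_7 and 15662 in AAA_14.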

How the data were processed

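The authors deposited raw UMI counts for each gene in each barcode; per the file headers, Cell Ranger 6.1.2 made them. Seurat and mm10 are also named in the submitters' processing notes. For the annotation, read filters, strand setting and doublet removal, nothing is stated (not given in the sources used here). Members and gene lists were chosen with earlier results of these data known.

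Barcodes with at least 200 genes were clustered with scanpy 1.11.5 and leidenalg 0.10.2 (2000 variable genes without members, 30 components, 15 neighbours, resolution 1, 29 clusters). Names needed at least 3 markers detected in 10% of barcodes, and a second class below 0.8 of the first score. Scrublet called 0, 1 and 1 doublets, a failed call, so none were removed. Classes needed 50 barcodes.

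Counts were summed per class and library. Nuclear genes were divided by non-mitochondrial UMIs and mt- genes by all UMIs. Log2 ratios had 0.5 counts added and exact conditional binomial 95% intervals, and shares had exact Clopper-Pearson intervals. PCR and cell sampling are outside both. The ratio script was tested on simulated counts, where unchanged genes passed the fold more often in neutrophils and dendritic cells, the classes with fewest Sham barcodes, than in T, NK and B cells. A gene was measured in a comparison when its UMIs in the 2 libraries summed to at least 30. Gene positions and lengths came from GENCODE, and promoter sequences from RefSeq. Named genes were every mt- gene, the 3 highest and 3 lowest nuclear members per class with at least 100 UMIs, alternative subunit forms, the Sdh genes, up to 2 members per complex with the widest range, and the 10 genes most like the nuclear sum. Genes of other lists named with values, and Malat1 stand outside that rule. A result that this rule would name is not reported here.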

Additional observations from a re-analysis of the deposited data

Results flagged for a closer look

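The summed mitochondrial-encoded genes moved in opposite directions in different classes of the same comparison, AAA_14 over Sham. The log2 ratio was 0.99 in neutrophils, -0.40 in T cells and -0.76 in dendritic cells, and each kept its sign in every setting that gave a value. Sham held 122 neutrophils and 58 dendritic cells. The mix of clusters within these classes differed between Sham and AAA_14, as given above, and its part in the ratios was not tested. The difference between the classes was not tested, since each group was 1 library.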

How the results depend on the processing

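No paired analysis was possible because each group was 1 library. Log2 ratios below are AAA_14 over Sham, and each printed value moved by more than its counting interval or changed sign. With at most 10% mitochondrial UMIs, mitochondrial-encoded sums were 0.783 in neutrophils, -0.233 in T cells, -0.163 in NK cells and -0.0915 in B cells, and nuclear sums -0.0745 (T) and -0.132 (B). With at least 500 genes the mitochondrial-encoded sums were 0.938 in neutrophils, -0.304 in T and 0.024 in B cells, and the nuclear sums -0.0436 in T and -0.226 in B cells. With class from a barcode's own marker UMIs, mitochondrial sums were 0.874 in neutrophils, -0.336 in T, 0.133 in NK and -0.225 in B cells, and nuclear sums 0.0994, -0.0929, -0.239 and -0.00883 in the same order. With doublets removed by score, mitochondrial sums were 1.13 in neutrophils, -0.387 in T and -0.0199 in B cells, and nuclear sums -0.0104 in neutrophils and -0.0414 in T cells. With all UMIs as denominator, nuclear sums were 0.00301 in neutrophils, -0.0288 in dendritic cells and 0.0228 in T cells. As means over barcodes, mitochondrial sums were 1.52 in neutrophils, -0.317 in dendritic, -0.538 in T, 0.338 in NK and 0.0186 in B cells, and nuclear sums -0.0715, -0.126, 0.0965, -0.322 and -0.15. Thinned to 1000 UMIs, nuclear sums were -0.0237 in neutrophils, -0.0501 in T, -0.309 in NK and -0.272 in B cells. With TMM factors they were -0.218 in neutrophils, -0.253 in dendritic, -0.362 in T, -0.592 in NK and -0.419 in B cells. Settings chosen after seeing the data gave nuclear sums of 0.0941 in B cells with the unnamed cluster, and -0.184 in T and -0.134 in B cells at 5 to 10% mitochondrial UMIs. Neutrophils stayed below B cells in every setting that gave a value: -0.431 (at most 10% mitochondrial), -0.531 (own markers), -0.487 (doublets) and -0.28 (all UMIs) in AAA_14, -0.455 (own markers) and -0.689 (doublets) in AAA_7, and -0.48 (all UMIs) in Sham. Members at least 1.5-fold different summed to 66 over classes, 112 when centred on the median gene (also chosen after seeing the data) and 14 at 2-fold. The cause of these changes was not tested. Dendritic cells gave no value where Sham held under 50 barcodes, and neutrophils gave none at 5 to 10% mitochondrial UMIs. Depth limits Sham neutrophils and dendritic cells most, where single genes rest on as few as 8 UMIs.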
